A study of Mus musculus with 20 samples.

Results

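Cluster 4 is 1 of 6 groups into which the study's authors divided the microglia of the mouse retina by their transcripts. Its members are the wells that the deposited retina annotation calls microglia and places in cluster 4. They number 81 of 314 microglia wells and of 511 annotated retina wells in all. Most of them, 56, came from unlesioned retina, 9 came from retina 3 days after laser and 16 from retina 7 days after laser. Throughout, cluster 4 wells are set beside the other 233 microglia wells of the same libraries.

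The study sorted CD45+ cells, after staining for CD45 and CD11b, from the eyes of 8-week-old C57BL/6 mice by FACS, 1 cell per well of 384-well plates, and counted transcripts by mCEL-Seq2, a 3′-end method with molecular identifiers. The retina groups used here are control retina without a lesion, and retina taken 3 and 7 days after laser lesioning, labelled CNV; no transgene or drug is named for any group. Each group has 4 libraries of 192 wells, and 2 libraries of each group carry the prefix P1 in their names and 2 the prefix P2. Mice were about 6 in 3 experiments per the series design, and the labels tie no library to a mouse, so the spread between libraries may be technical.

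Microglia are the resident macrophages of the retina and the brain. They hold their identity through transcription factors such as Sall1 and through TGF-beta signalling, and they sense nucleotides released by damaged cells through purinergic receptors such as P2ry12. After injury many microglia lower these resting genes and raise a set known as the disease-associated programme, which includes Apoe, Lpl, Clec7a and lysosomal proteases.

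Cluster 4 carried the microglial markers at levels that overlapped those of the other microglia. P2ry12, a receptor for ADP, was found in 54 of 56 control cluster 4 wells (96.4%) and in 61 of 64 other control microglia wells (95.3%). Siglech, a surface lectin, was found in 54 of 56 cluster 4 wells (96.4%) and 53 of 64 others (82.8%). Both shares lie above those in other retina cell types, whose wells were taken over all 3 retina groups. Those wells came almost all from retina after laser, since 17 of 18, 15 of 15, 29 of 29 and 59 of 60 annotated wells of the control libraries were microglia. P2ry12 was found in 16.7% of 108 dendritic cell wells and 11.2% of 89 wells of monocytes, lymphocytes and granulocytes, at median depths of 9446 and 5296 transcripts. Siglech was found in 24.1% and 16.9% of these wells, and the highest well of monocytes, lymphocytes and granulocytes held 39.2 Siglech transcripts, against 9.01 in the highest control cluster 4 well.

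Levels are given as CPM, counts scaled to a total of 1000000 transcripts over the summed wells of a library. In control libraries 1 to 4, P2ry12 stood at 1175, 1322, 1786 and 1774 CPM in cluster 4, against 1155, 1521, 1323 and 1469 CPM in the other microglia. Siglech stood at 1013, 915, 1017 and 869.6 CPM in cluster 4, against 516, 876, 1029 and 748 CPM. For both genes the groups overlapped and neither was higher in cluster 4 in all 4 libraries.

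Sall1, the transcription factor that marks microglia among macrophages, was the lowest of the 3 markers. It stood at 243, 178, 309.5 and 215 CPM in cluster 4, against 227, 309, 416 and 314 CPM in the other microglia, lower in 3 of 4 libraries and overlapping. It was found in 30 of 56 cluster 4 wells (53.6%) and 41 of 64 others (64.1%), and, with every well thinned to 1000 transcripts, in 8.93% and 32.8%. In wells called monocyte, lymphocyte or granulocyte, again over all 3 retina groups and not thinned, the share was 5.62%. In dendritic cells it was 0 of 108 wells, which allows a share of up to 2.78%. The thinned shares rest on few transcripts per well, 5 and 21 wells in all.

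By the second, signature-based call in the annotation, 80 of the 81 cluster 4 wells were microglia too, as were 197 of the 233 other microglia wells. Among the others these were 62 of 64 wells in control, 52 of 72 at day 3 and 83 of 97 at day 7. In control cluster 4 wells, summed border macrophage markers ran from 0 to 44.2 CPM over libraries, monocyte markers from 0 to 59 CPM and dendritic cell markers from 0 to 79 CPM, and lymphocyte markers were at 0. Granulocyte markers ran from 162 to 413 CPM in cluster 4 and from 258 to 367 CPM in the other microglia. Of that list only Csf3r had a transcript in the other microglia, and only Csf3r and S100a9 in cluster 4. Mueller glia and astrocyte markers ran from 851 to 1120 CPM in cluster 4 and from 474 to 2136 CPM in the other microglia. The 15 microglia markers together ran from 15161 to 21713 CPM in cluster 4 and from 15303 to 20125 CPM in the other microglia. Photoreceptor markers summed to 1601 to 3524 CPM in cluster 4 and 1288 to 4434 CPM in the others.

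**Figure D1:**
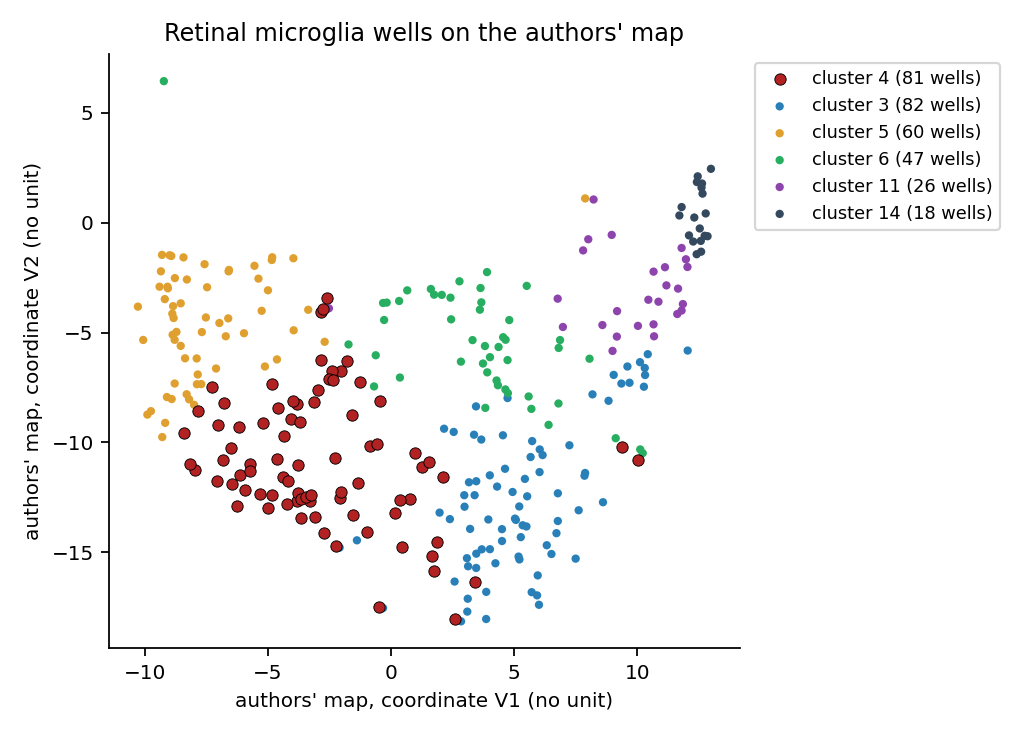
Positions of the 314 retinal microglia wells on the authors' map (coordinates V1 and V2, no unit), coloured by the authors' cluster, with the 81 cluster 4 wells outlined. By its median V1, cluster 4 lies between cluster 3 and cluster 5 (-3.13 against 5.05 and -8.25), and single wells overlap.

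On the authors' map the median position of cluster 4, over wells of all times, lay between those of its neighbours, clusters 3 and 5. Single wells overlapped, with V1 from -8.42 to 10.04 in cluster 4, -2.09 to 12.05 in cluster 3 and -10.29 to 7.89 in cluster 5. In control retina clusters 3 and 5 held 29 and 32 wells. A separate annotation of the whole eye places 55 of the 56 control cluster 4 wells, 43 of them in its cluster 14, 8 in its cluster 13 and 4 in its cluster 15. The wells of cluster 3 fell there mostly in cluster 13 (20 of 27) and those of cluster 5 in cluster 15 (26 of 27). The median depth of a control well was 3626 transcripts in cluster 4 and 3387 in the other microglia. Mitochondrial transcripts held a median of 8.83% against 9.11%, and wells thinned to 1000 transcripts held 441 genes against 438.5.

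Cluster 4 made up a larger part of microglia in control retina than after laser. In control libraries 1 to 4 it held 6 of 17, 7 of 15, 17 of 29 and 26 of 59 microglia wells. At day 3 it held 2 of 18, 5 of 12, 0 of 12 and 2 of 39, where the count of 0 allows a share of up to 25%. At day 7 it held 4 of 26, 5 of 37, 6 of 28 and 1 of 22. Summed over libraries it made up 46.7% of microglia in control (Wilson 95% interval 38 to 55.6%), 11.1% at day 3 (5.96 to 19.8%) and 14.2% at day 7 (8.91 to 21.8%), and the intervals cover counting error only. The libraries of day 3 overlapped those of control, through 1 library at 41.7% against a control low of 35.3%, and those of day 7 lay below all control libraries. These are counts without a test, since the levels of genes on which the wells were clustered differ between the times. Most microglia wells outside cluster 4 were in cluster 6 at day 3 (39 of 72) and in clusters 3, 11 and 14 at day 7 (41, 21 and 15 of 97).

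**Figure D2:**
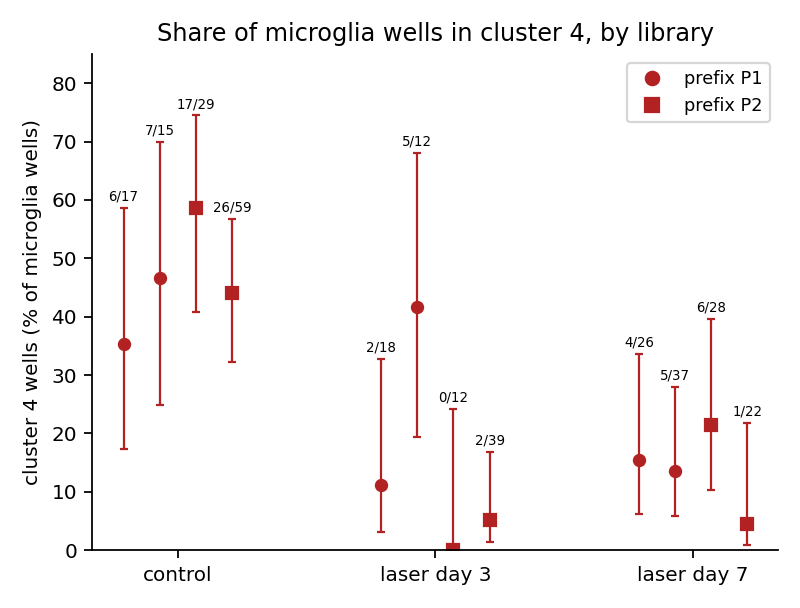
Share of microglia wells that belong to cluster 4 (percent, y axis) in each of the 4 libraries of control retina, laser day 3 and laser day 7, with counts above each point, Wilson 95% intervals as bars, circles for prefix P1 and squares for prefix P2. Control libraries lie between 35.3% and 58.6%, and the highest after laser is 1 day 3 library at 41.7%.

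What cluster 4 expressed differently from other resting microglia was asked within each control library. For each gene with at least 100 transcripts in these wells, the log2 ratio of CPM + 10 in cluster 4 over CPM + 10 in the other microglia of the same library was taken, and a gene is counted as higher or lower where all 4 libraries share the sign and the median is at least 0.58 in size. The clusters were made from these same transcripts, so the ratios describe cluster 4 and are not tested. Of 316 genes, 5 were higher in cluster 4 (1.58%) and 1 was lower (0.316%). The median ratio of all 316 genes was -0.07.

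Maf had the largest median ratio of the genes counted as higher, at 1.43 ± 0.41 on the log2 scale (SD, n = 4 libraries). It encodes c-Maf, a basic leucine zipper transcription factor of macrophages. Maf stood at 810.2, 508, 472 and 565 CPM in cluster 4, against 289, 155, 171 and 342 CPM in the other microglia. The lowest cluster 4 library lay above the highest of the others. The mean was 589 ± 153 CPM in cluster 4 and 239 ± 90.8 CPM in the other microglia (SD, n = 4 libraries each), from 122 and 64 transcripts in all. Without control library 4, whose wells are the most numerous, Maf had 99 transcripts and was not listed, and the counts became 2 higher and 3 lower. With the gene set kept, its median ratio stood between 1.41 and 1.46 whichever library was left out.

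Seen by well, Maf was present in 44 of 56 cluster 4 wells (78.6%, Wilson interval 66.2 to 87.3%) and in 33 of 64 other microglia wells (51.6%, 39.6 to 63.4%). Thinned to 1000 transcripts, the shares were 39.3% and 21.9%. Maf was found in 8.33% of dendritic cell wells and in 23.6% of wells of monocytes, lymphocytes and granulocytes, whose wells held more transcripts. Of the 16 listed microglial transcription factors, 6 had enough transcripts, and Maf was the only one counted.

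The other genes counted as higher were Rps13, Celf2, Rpl23a-ps3 and Gm13075. Celf2, an RNA-binding protein that acts on splicing, stood at 324, 356, 280.0 and 565 CPM in cluster 4, against 186, 206, 269 and 286 CPM in the other microglia, with overlap. In wells thinned to 1000 transcripts its direction turned, with Celf2 found in 28.6% of cluster 4 wells and 34.4% of the others. Rps13, a protein of the small ribosomal subunit, stood at 486, 305, 309.5 and 294 CPM in cluster 4, against 227, 77.3, 269 and 166 CPM, without overlap. Rps13 and the pseudogene Rpl23a-ps3 (median log2 ratio 0.76 ± 0.54, SD, n = 4) have close copies in the genome, so their values are uncertain where reads were shared. Gm13075, a predicted gene, had a median log2 ratio of 0.58 ± 0.28 (SD, n = 4). Just below the limit came Txnip, an inhibitor of thioredoxin, at 0.58 (0.579 before rounding), and Rps24 at 0.56. Under TMM scaling Maf, Rps13 and Rpl23a-ps3 were still counted and Celf2 and Gm13075 were not. Rps13 and Gm13075 had under 100 transcripts once any 1 library was left out, and so were not listed. With the gene set kept, the Rps13 ratio was 0.78 to 1.07 and that of Gm13075 fell short of the limit without library 2 or 3, at 0.53.

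Abhd12, a lipase that hydrolyses lysophosphatidylserine, was the gene counted as lower, at -0.92 ± 0.62 (median log2 ratio, SD, n = 4). It stood at 202, 102, 383 and 226 CPM in cluster 4, against 536, 258, 392 and 342 CPM in the other microglia, with overlap. Its ratio was -0.58 (-0.577 before rounding) without library 1 or without library 2, short of the limit, and without library 4 it had 87 transcripts and was not listed. It was found in 57.1% of cluster 4 wells and 71.9% of the others, and in 14.3% and 40.6% of wells thinned to 1000 transcripts. Just short of the limit on the low side were Cd9 at -0.55 and the protease Ctsh at -0.52, each lower in all 4 libraries.

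**Figure D3:**
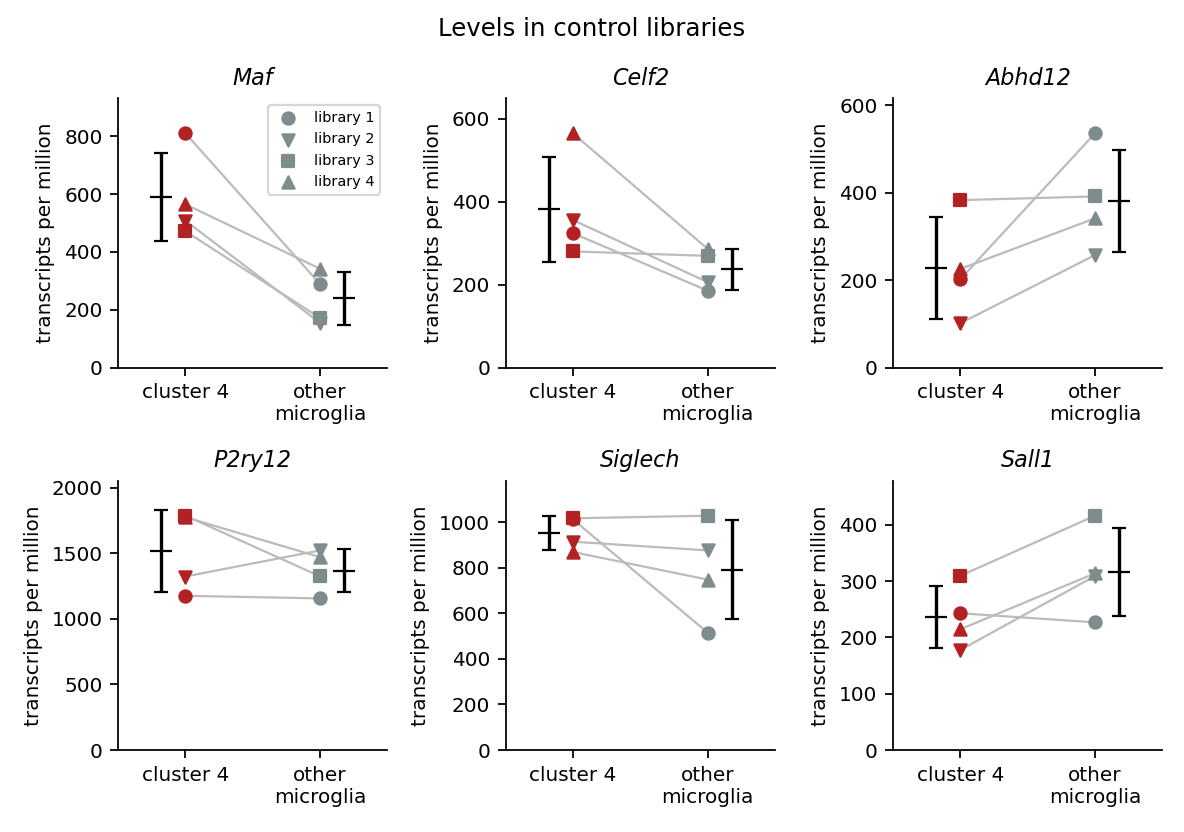
Levels in CPM (y axes, from 0) of Maf, Celf2, Abhd12 and the markers P2ry12, Siglech and Sall1 in cluster 4 wells (red) and other microglia wells (grey) of the 4 control libraries, joined within a library, with mean and SD in black. The Maf libraries of cluster 4 (472 to 810.2) all lie above those of the other microglia (155 to 342), and the other genes shown overlap.

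Gene lists otherwise gave no count in control retina. Of the 15 microglia markers 13 had enough transcripts and 0 were counted, with a median log2 ratio of -0.11. Of 26 disease-associated genes 11 had enough and 0 were counted, with a median of -0.16. Apoe, the lipid carrier of that list, stood at 203, 127, 678 and 248 CPM in cluster 4, against 186, 541, 1573 and 425 CPM, lower in 3 of 4 libraries. The 21 cytosolic ribosomal protein genes with enough transcripts had a median of 0.12, of which 0 were counted, since Rps13 and Rpl23a-ps3 are not on that list. Of these 21 genes 5 were higher and 0 lower in all 4 libraries, by less than the limit. The 3 class II antigen presentation genes had a median of -0.62, but control library 1 went the other way. There H2-Aa, a chain of the class II complex, stood at 1095 CPM in cluster 4 against 351 CPM, and in libraries 2 to 4 at 203, 295 and 203 CPM against 515, 588 and 360.2 CPM. Without library 1, 6 genes met the rule as lower, H2-Aa, H2-Eb1 and Apoe among them, and without library 2 there were 0.

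The lysosome, complement, cytoskeleton and splicing lists had 0 genes counted. Of 21 lysosome genes 18 had enough transcripts, with a median of -0.12, and 4 of them were lower in all 4 libraries by less than the limit, among them Grn, progranulin, at -0.39 ± 0.37 (median log2 ratio, SD, n = 4). Over all 316 genes, 19 were lower and 21 higher in all 4 libraries, whatever the size. Of 11 complement genes 7 had enough, with a median of -0.07, and of 16 cytoskeleton genes 8 had enough, with a median of -0.18. The 7 splicing and nuclear RNA genes had a median of 0.23 and the 14 mitochondrially encoded genes 0.06, and 0 of either were counted. Sparc, a matrix protein gene of microglia, was lower in all 4 libraries, at 1784, 1322, 1578 and 1571 CPM in cluster 4 against 2213, 1986, 1666 and 2117 CPM, and its ratio of -0.37 stayed short of the limit.

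Cluster 4 was also set against its neighbours one at a time, and Maf was counted as higher against each. Against cluster 3, in the 3 control libraries with at least 5 wells of both, 6 of 184 genes were higher (3.26%) and 7 lower (3.8%). Maf stood at 810.2, 472 and 565 CPM in cluster 4, against 385, 150.0 and 467 CPM in cluster 3. Against cluster 5, over 4 libraries, 3 of 218 genes were higher (1.38%) and 1 lower (0.459%). Maf stood at 810.2, 508, 472 and 565 CPM in cluster 4, against 178, 191, 234 and 249 CPM in cluster 5. In each comparison the lowest cluster 4 library lay above the highest of the neighbour, narrowly for cluster 3 (472 against 467 CPM). Thinned to 1000 transcripts, Maf was found in 39.3% of cluster 4 wells, 34.5% of cluster 3 wells and 12.5% of cluster 5 wells. Against cluster 3 its median ratio was 1.05, and 0.66 without library 3. Without library 4 Maf had under 100 transcripts in either comparison and was not listed.

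Apart from Maf and Gm42418, which is described below, the genes counted differed between the neighbours. Lair1, an inhibitory collagen receptor, stood at 527, 840.3 and 644 CPM in cluster 4, against 231, 550.0 and 486 CPM in cluster 3. Ivns1abp met the rule too (0.59 ± 0.17, median log2 ratio, SD, n = 3). Without library 1 both fell short of the limit, Lair1 at 0.50 and Ivns1abp at 0.52, and without library 4 both had under 100 transcripts. Lower in cluster 4 than in cluster 3 were Cyfip1, a regulator of actin assembly (-0.88 ± 0.05), Sparc (-0.68 ± 0.40) and Actg1, a cytoplasmic actin (-0.68 ± 0.42). Rpl21 and Luc7l2 were also among the genes lower in cluster 4. Of these 5 genes only Cyfip1, at -0.89 to -0.84, kept its sign and size whichever library was left out, and it then had under 100 transcripts each time. Without library 1, Sparc stood at -0.42, Actg1 at -0.36, Rpl21 at -0.40 and Luc7l2 at -0.47, and without library 4 Sparc stood at -0.55 and Actg1 at -0.44. TMM scaling gave 11 genes higher and 2 lower against cluster 3. Against cluster 5, Irf8, a transcription factor that microglia need to develop, stood at 324, 330.3, 589.7 and 463 CPM in cluster 4, against 133, 287, 234 and 373 CPM. The median ratio of Irf8 was 0.76, and 0.30 without library 1 or without library 3, and without library 4 it had 77 transcripts and was not listed. Wdr89 was the other gene higher than in cluster 5 (0.83 ± 0.37, median log2 ratio, SD, n = 4), with under 100 transcripts once any 1 library was left out.

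Gm42418 separated the 3 clusters in order. This gene model overlaps Rn18s-rs5, a ribosomal RNA related sequence in RefSeq. Its CPM in the control libraries was 6137, 7620.3 and 6159 in cluster 4 against 3474, 2252 and 3126 in cluster 3 (libraries 1, 3 and 4), a median log2 ratio of 0.98 ± 0.50. Against cluster 5 it was 6137, 6149.9, 7620.3 and 6159 CPM in cluster 4 and 9501, 17580.1, 16523 and 14156 CPM in cluster 5, a ratio of -1.16 ± 0.37. Neither pair of groups overlapped. The mitochondrial rRNA mt-Rnr1 was higher in cluster 4 than in cluster 3 as well (0.89 ± 0.61, median log2 ratio, SD, n = 3, and 0.579, short of the limit, without library 4), while mitochondrial transcripts as a whole held a median of 8.83% of a well in cluster 4, 7.05% in cluster 3 and 12% in cluster 5. Leaving out each library kept Gm42418 counted in both comparisons. The part of these rRNA-related transcripts in the division into clusters was not tested.

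**Figure D4:**
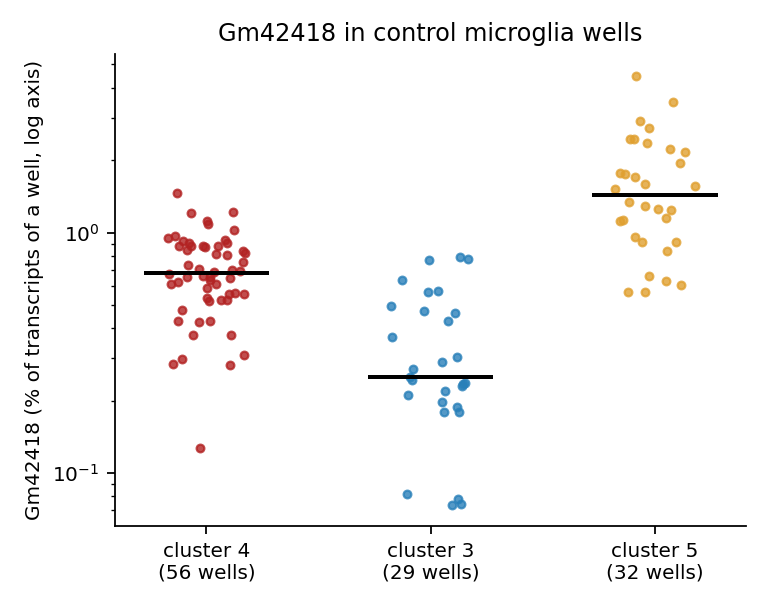
Gm42418 as a percentage of the transcripts of each control microglia well (log axis) in cluster 4, cluster 3 and cluster 5, with the median as a bar. The median was 0.682% in cluster 4, 0.25% in cluster 3 and 1.43% in cluster 5, and single wells overlap.

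After laser, the wells that still fell in cluster 4 were compared with the other microglia of the same library pairs (2 libraries of a time with the same prefix). This comparison was added after the data were seen, and the genes named in it were chosen after their values were seen. It covers the 3 pairs with at least 5 cluster 4 wells, day 3 P1 (7 wells), day 7 P1 (9 wells) and day 7 P2 (7 wells). It leaves out 96 genes that the combined retina table lacks, because one of them, Gm10800, held a median of 11.6% of transcripts per well in cluster 4 against 2.72% in the other microglia at day 3, and 23.6% against 18.4% at day 7. In control these were 31% and 30.3%. By the signature-based call, microglia made up 11 of 16 and 3 of 7 other microglia wells in the 2 day 3 P1 libraries. In cluster 4 they made up 1 of 2 and 5 of 5 wells there. The part of the wells without that call in the ratios was not tested. Values rest on few wells, and again describe the wells without a test.

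Of 525 genes, 15 were higher in cluster 4 in all 3 pairs (2.86%) and 55 lower (10.5%), and the median ratio of all genes was -0.11. With 1 pair left out at a time there were 22 to 29 higher and 43 to 68 lower, and with the 96 genes kept 7 higher and 77 lower. Among the higher genes were receptors of resting microglia. P2ry12 stood at 1231, 1948 and 1983 CPM in cluster 4 (day 3 P1, day 7 P1, day 7 P2), against 708, 1333 and 1153 CPM in the other microglia. Gpr34, a receptor for lysophosphatidylserine, stood at 1170.0, 1715 and 1487 CPM in cluster 4, against 343, 931 and 890.0 CPM, without overlap. P2ry12 overlapped between pairs but was higher in cluster 4 within each.

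Of the 15 listed TGF-beta pathway genes only 2 had enough transcripts, and both were counted as higher, against 2.86% of all 525 genes. The other listed genes of the pathway were not assessed. Tgfbr1, the type I receptor, stood at 1848, 1576 and 1628 CPM in cluster 4, against 676, 1166 and 910.3 CPM in the other microglia. Tgfbr2, the type II receptor, stood at 739, 602 and 496 CPM in cluster 4, against 311, 386 and 354 CPM. Neither overlapped. Cd84 (0.89 ± 0.53, median log2 ratio, SD, n = 3 pairs), an adhesion receptor, and the phosphatase Ptpn6 (0.88 ± 0.53) were higher too. Some of these rest on 1 pair. Without day 3 P1, Tgfbr2 stood at 0.55 and Cd84 at 0.51, and without day 7 P1 Ptpn6 stood at 0.57, all short of the limit. Tgfbr2 and Cd84 had under 100 transcripts without day 7 P1, as had Ptpn6. Tgfbr1, Gpr34 and P2ry12 were counted whichever pair was left out. So was Xist, with a median log2 ratio of 0.87, and 0.80 to 0.87 with 1 pair left out. Of 14 microglia markers with enough transcripts 2 were counted as higher, P2ry12 and Gpr34, and 0 as lower, with a list median of 0.25. Siglech (0.21 ± 0.53) and Sall1 (-0.27 ± 0.47) were not counted, and neither was Maf, at 369, 556 and 1275 CPM in cluster 4 against 161, 779.8 and 405 CPM in the other microglia.

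The disease-associated list went the other way. Of its 16 genes with enough transcripts 0 were higher and 7 lower in cluster 4, with a list median of -0.49. Over all 525 genes 10.5% were lower, with a median of -0.11. Apoe stood at 308, 1113 and 4749.5 CPM in cluster 4, against 924, 10912 and 11866 CPM in the other microglia, lower within every pair though the groups overlap. Clec7a, the receptor Dectin-1, stood at 246, 185 and 212 CPM in cluster 4, against 504, 378 and 455 CPM, without overlap. Fth1, the ferritin heavy chain, stood at 1663, 1252 and 2266 CPM in cluster 4, against 3040.3, 3108 and 3109.8 CPM, also without overlap. Lpl, Ctsb, Ctsd and Cd52 complete the 7. Lpl rests on 7 transcripts in cluster 4 against 94 in the others. Apoe and Fth1 were counted whichever pair was left out, with Apoe at -2.42 without day 7 P2, -2.30 without day 3 P1 and -1.44 without day 7 P1. Ctsb and Ctsd fell short of the limit without day 3 P1 (-0.40 and -0.43) and without day 7 P2 (-0.43 and -0.47), and Cd52 without day 7 P1 (-0.56) and without day 7 P2 (-0.35). Clec7a had 99 transcripts without day 7 P1 and Lpl under 100 without any 1 pair.

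Other genes lower in cluster 4 were spread over several functions. H2afz, a histone variant, had a median log2 ratio of -1.53 ± 0.23 (SD, n = 3 pairs), Npm1, a nucleolar chaperone, -1.38 ± 0.80, and Tuba1a, an alpha-tubulin, -1.41 ± 0.78. The chaperones Hsp90ab1 (-1.26 ± 0.65) and Hspa8 (-1.06 ± 0.82) were the 2 of 5 listed heat shock genes counted, both lower. Without day 3 P1, Tuba1a stood at -0.77 and Hsp90ab1 at -0.78, and without day 7 P2 at -0.84 and -0.72. Hspa8, at -0.80 to -1.60, had under 100 transcripts without any 1 pair. Of 29 ribosomal protein genes 3 were lower and 0 higher, a share near the 10.5% of all genes counted as lower. Fn1, fibronectin, counted 2 transcripts in cluster 4 and 119 in the other microglia. Summed monocyte markers ran over libraries from 0 to 42.3 CPM in cluster 4 and from 21.5 to 420.1 CPM in the other microglia at day 3, and from 0 to 95.6 CPM and from 0 to 146 CPM at day 7. Mueller glia and astrocyte markers, a list that holds Apoe, ran from 1333 to 9682 CPM in cluster 4 and from 5977 to 7911 CPM in the other microglia at day 7. The part of these markers in these differences was not tested.

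**Figure D5:**
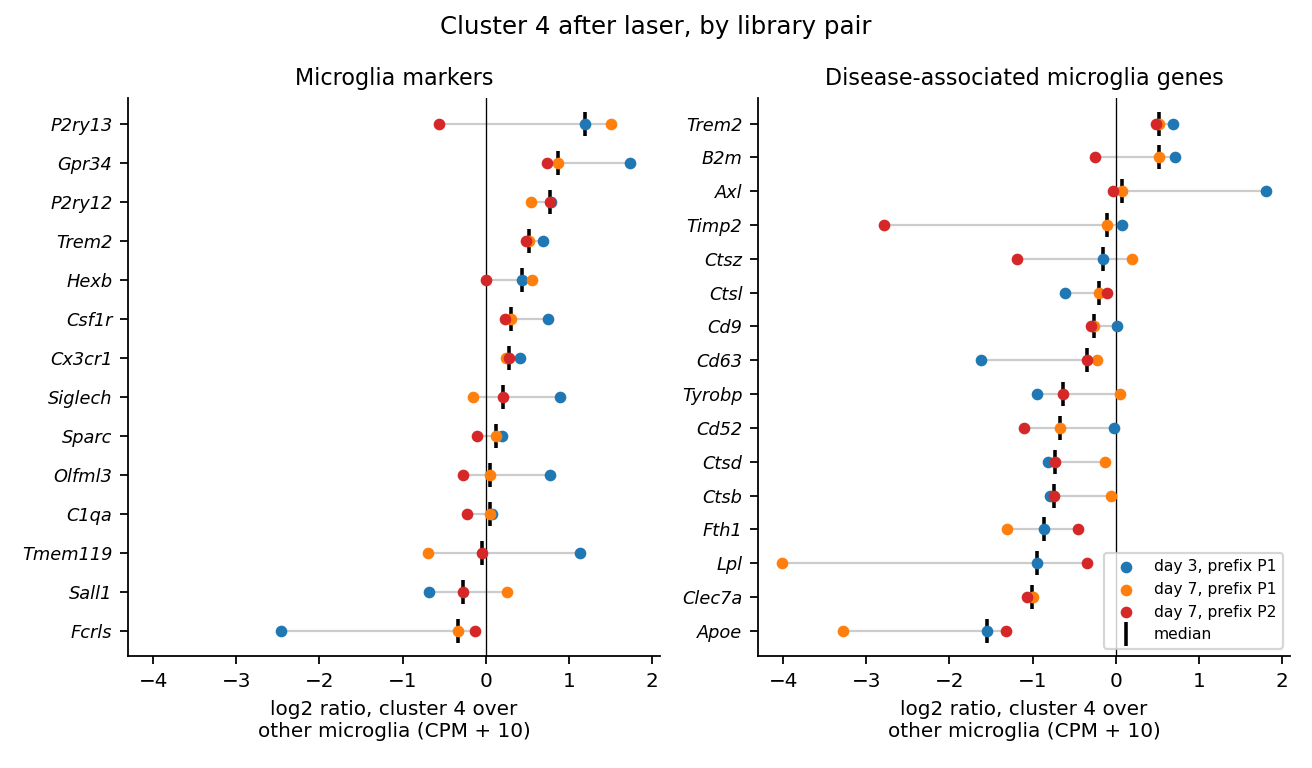
Log2 ratio of CPM + 10 in cluster 4 over other microglia (x axis) for the listed microglia markers (left) and disease-associated genes (right) with at least 100 transcripts, in the 3 library pairs after laser, with the median as a tick. P2ry12 and Gpr34 lie right of 0 in all 3 pairs, and Apoe, Clec7a, Lpl and Fth1 lie left of 0 in all 3.

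The other microglia after laser include clusters 6, 11 and 14, which held 1, 2 and 0 wells in control retina. In the day 3 P1 libraries, 3 of 5 and 0 of 3 cluster 5 wells were microglia by the signature-based call, as were 2 of 2 cluster 3 wells. Compared with the wells of clusters 3 and 5 alone, 11 of 301 genes were higher in cluster 4 (3.65%) and 8 lower (2.66%). Gpr34 (0.92 ± 0.23, median log2 ratio, SD, n = 3 pairs), Tgfbr1 (0.61 ± 0.40) and Tgfbr2 (0.62 ± 0.30) were higher here too, and so was Trem2, a lipid receptor of microglia, at 924, 1715 and 1629 CPM in cluster 4 against 474, 1099 and 1028 CPM. Without day 3 P1, Tgfbr1 stood at 0.48 and Tgfbr2 at 0.46, short of the limit, while Gpr34 and Trem2 were counted whichever pair was left out. P2ry12 was no longer counted (0.34 ± 0.25). H2-Aa was higher as well, at 0.82, and stood at 0.53, short of the limit, without day 3 P1. Among the 8 lower genes were the chemokine Ccl12 (-2.02) and Tuba1a (-1.59), both counted whichever pair was left out. Of the disease-associated list, 12 genes had enough transcripts, of which 1 was higher (Trem2) and 0 lower. Apoe stood at 308, 1113 and 4749.5 CPM in cluster 4 against 323, 2478 and 4994 CPM in clusters 3 and 5.

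Whether cluster 4 wells themselves changed after laser could be tested at day 7, with 2 pairs of at least 5 wells at each time. Of 417 genes, 0 were higher and 0 lower at day 7 (0% and 0%, edgeR quasi-likelihood test, Benjamini-Hochberg adjusted p under 0.05), 20 had an unadjusted p under 0.05, and DESeq2 also called 0. Membership of 1 cluster limits how far the wells can differ. At day 3 the second pair held 2 wells, so its levels are given without a test. CPM in this comparison, as in control above, include the 96 genes, so levels are not on the scale of the comparisons after laser. Those of the 96 that are not mitochondrial held a median of 33% of the transcripts of a cluster 4 well at day 7 and 40.1% in control, and their part in the result was not tested beyond the count without them.

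The 5 genes with the smallest p all had an adjusted p of 0.783. Tmem119, a membrane protein of resting microglia, stood at 356 and 241 CPM at day 7 (13 and 8 transcripts, P1 and P2), against 609 and 901 CPM in control, a log2 change of -1.59 ± 0.43 (SE). At day 3 it stood at 720.0 and 773 CPM. Slco2b1, an anion transporter, stood at 302 and 241 CPM at day 7, against 515 and 556 CPM in control. Rhob, a small GTPase, stood at 192 and 121 CPM at day 7, against 515 and 319.6 CPM in control. Rpl34 stood at 521 and 332 CPM at day 7, against 93.7 and 153 CPM in control, and Ifi30, a lysosomal thiol reductase, at 466 and 332 CPM, against 140.5 and 102 CPM. In each of these 5 genes the pairs of the 2 times did not overlap. The genes were chosen for their small p, so this adds no evidence of a change.

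Lists are described by the signs of their log2 changes, with 0 called in each. Of 14 disease-associated genes tested 12 were above 0, with a median of 0.48 against -0.03 over all 417 genes. Some other lists had larger medians, from fewer genes. The median was 0.61 for photoreceptor markers (4 of 5 above 0). It was 0.64 for glycolysis and 0.84 for class I antigen presentation genes (2 of 3 above 0 in each). Summed photoreceptor markers in cluster 4 ran from 2105 to 10308 CPM over day 7 libraries, against 1601 to 3524 CPM in control, with overlap. Apoe stood at 658 and 2022 CPM at day 7, against 156 and 435 CPM in control, with a log2 change of 1.99 ± 0.75 (SE, adjusted p = 0.783). Of 14 microglia markers 4 were above 0 and 10 below, with a median of -0.29. All 7 microglial transcription factors tested were below 0, with a median of -0.45, Maf among them at 329 and 543 CPM at day 7 against 624 and 524 CPM in control. Of 25 ribosomal protein genes 21 were above 0 (median 0.36). All 14 mitochondrially encoded genes were below 0 (median -0.78), which rests in part on single wells. Mitochondrial transcripts held 14.1% and 5.61% of the sums at day 7 (P1 and P2), against 15.1% and 11.7% in control, and 1 control P1 well supplied 5988 of the 9669 mitochondrial transcripts of its sum. Without the highest well of each pair the shares were 11.4% and 5.34% at day 7, against 7.03% and 10.8% in control, so that the P1 pairs turned round. In wells with at most 25% mitochondrial transcripts 13 of the 14 genes were below 0, with a median of -0.35, and the median share per well was 8.51% at day 7 and 8.83% in control. Without the 96 genes, 0 genes were called and 52 had an unadjusted p under 0.05.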

How the data were processed

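Members and gene lists were chosen with earlier results of these data known. The authors deposited estimated transcript counts per gene and well (expected counts corrected for collisions of molecular identifiers, not normalized), after alignment with BWA 0.6.2-r126 per the submitters' processing notes; the genome build and the rules for counting reads are not named there or in the labels. Cell types, cluster numbers and map coordinates (a score without unit) are the authors' deposited annotation. Each annotated well was matched to its library by its counts, and counts were taken from the 12 library tables, which hold 371329 to 1130863 transcripts each and share 192 well barcodes. No doublet caller was run, and no source used here says how doublets were treated.

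Transcripts were summed over wells per library and scaled to CPM. Ratios used CPM + 10, genes with at least 100 transcripts and libraries with at least 5 wells on both sides. Sums per pair, rounded to whole counts, were tested with edgeR 4.0.16 (robust quasi-likelihood, TMM, filterByExpr; R 4.3.3), with DESeq2 1.42.0 as the alternative. Scripts were tested on simulated data. Named genes were the markers, the genes counted as higher or lower that reached 200 CPM (up to 12 each way, 5 for clusters 3 and 5), up to 4 per list, and, where no gene was called over time, the 5 with the smallest p. Some genes that met this rule are not reported here. The labels do not say which mice the libraries came from, so p-values may measure technical spread. Other alternatives were another pseudocount, other filters, scalings, well sets and weights, and each library left out.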

Additional observations from a re-analysis of the deposited data

Results flagged for a closer look

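In 30 groups of libraries examined, of which chance flags about 1 in 20, a single library stood far from the others for 1 gene. Rps13 stood at 486 CPM in cluster 4 of control library 1, against 294 to 309.5 CPM in cluster 4 of the other 3 control libraries. Rpl23a-ps3 had opposite signs after laser and in control. After laser its log2 ratio of cluster 4 over the other microglia was -0.13 at the median and below 0 in all 3 pairs, against 0.76 in control, where it was above 0 in all 4 libraries. That control value is over single libraries with all genes kept. In the form used after laser, library pairs without the 96 genes, the control ratio was 1.24 in P1 and 0.39 in P2, and the difference was not tested.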

How the results depend on the processing

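Against the other control microglia, the counts of 5 genes higher and 1 lower became 8 and 7 with library pairs, 6 and 4 with each well given the same weight, 5 and 2 with TMM scaling, 7 and 2 without mitochondrial genes, and 5 and 2 without the 96 genes, with or without Gm42418. They became 1 and 1 in wells thinned to 1000 transcripts (69 genes tested), 36 and 57 with at least 30 transcripts per gene (1439 genes), 192 and 271 with no filter (14702 genes), and 2 and 4 over libraries of all 3 groups, with 0 of the 6 genes still counted in the thinned wells or over the 3 groups. Without the 96 genes, 3 of the 5 higher genes and the 1 lower gene were still counted. Leaving out each control library gave 2 to 7 higher and 0 to 6 lower. Against cluster 3, TMM scaling gave 11 higher and 2 lower, and leaving out each library 3 to 8 and 4 to 7. Against cluster 5, 3 were lower without the 96 genes and 4 with TMM scaling, and leaving out each library gave 2 to 10 higher and 1 to 5 lower. After laser, 7 were higher with the 96 genes kept, 8 were lower against clusters 3 and 5 alone, and leaving out each pair gave 22 to 29 higher and 43 to 68 lower. Part of the genes lost when a library was left out had under 100 transcripts in the rest, and the report gives their ratios with the gene set kept. The cause of the other shifts was not tested, except where fewer or more genes were tested. Over time, 1 gene was called higher with no filter, and leaving out each pair, where a lone sum is assumed to vary like the other time's, gave 0 to 2 higher and 0 to 3 lower. Prefixes P1 and P2 did not pair the sums (r = -0.0161 over 417 genes), and the fit with the prefix as a replicate block called 0 genes higher and 0 lower. Of 313 named gene results 278 stayed within 1 SD under every alternative in which they were scored and 0 reversed a called direction there. A gene with too few transcripts in an alternative was not scored in it, and the thinned wells left 69 genes. By the share of thinned wells with a transcript, the direction of Celf2 did turn, as given above. Few wells per library, 1 to 26 of cluster 4 where it was found, limit what could be seen.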
